A study of Mus musculus with 2 samples.

Results

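The cells described here are the 20% of cells in each library that carried most transcript of Col4a1 and Sparc together. Within each library, cells were ranked by the summed UMIs (distinct molecules counted) of the 2 genes divided by the cell's total UMIs, and the top 20% were taken. This gave 1027 of 5135 cells, 456 of 2281 in the panobinostat library and 571 of 2854 in the vehicle library. They are called high cells below, and the remaining 1825 panobinostat cells and 2283 vehicle cells are called other cells.

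The study profiled renal progenitors of the Pax2 lineage by droplet single-cell RNA sequencing of the 3′ ends of transcripts, to find how panobinostat acts on them. Both groups were cells of 9-week-old C57Bl/6 mice that carried the alleles Pax2.rtTA and TetO.Cre with the reporter R26.mT/mG, in which a Pax2-driven, doxycycline-controlled transactivator switches on Cre and recombined cells exchange membrane tdTomato for membrane GFP, so that a sort for GFP selects descendants of cells that had used the Pax2 promoter, whatever they express later. Glomeruli of 2 mice were cultured, cells that had grown out by day 5 were sorted for GFP and starved for 16 h, and the panobinostat group then received 0.2 µM of this histone deacetylase inhibitor for 48 h, while the vehicle group received DMSO. There was 1 library per treatment, so treatment and library cannot be told apart, no test was run, and all values are descriptions. The cells grew out of glomeruli in serum and were cultured after the sort, which limits them as a model of the cells in the kidney, and the mouse of origin of a cell was not analysed here.

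Type IV collagen is the network-forming collagen of basement membranes, and its most widespread trimer holds 2 chains encoded by Col4a1 and 1 encoded by Col4a2. Sparc encodes a secreted glycoprotein that binds collagens and is grouped with the matricellular proteins, which modulate matrix assembly without being its main scaffold. In the glomerulus, parietal epithelial cells line Bowman's capsule on such a membrane, and a subset of them is regarded as a progenitor pool.

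Depth and identity were compared before the genes. High cells had a median of 40723 UMIs against 42742 in other cells with panobinostat, and 27999 against 27822 with vehicle. Epithelial and lineage transcripts were present in all 4 cell groups: the keratin Krt8 stood at 1263 CPM (UMIs per 1000000 of the summed cells) in panobinostat high cells, 1822 CPM in other panobinostat cells, 3914 CPM in vehicle high cells and 4757 CPM in other vehicle cells. The nephric transcription factor Pax8 stood at 171 CPM in panobinostat high cells against 107 CPM in other panobinostat cells, and at 137 CPM in vehicle high cells against 116 CPM in other vehicle cells. Pax2 stood at 18.3 CPM against 26.5 CPM with panobinostat, and at 48.1 CPM against 38.5 CPM with vehicle. Transcript of the GFP reporter stood at 8475 CPM in panobinostat high cells against 7480.4 CPM in other panobinostat cells, and at 7252 CPM in vehicle high cells against 7689 CPM in other vehicle cells. A reporter level under 1000 CPM was found in 25 panobinostat high cells (5.48%), 153 other panobinostat cells (8.38%), 52 vehicle high cells (9.11%) and 209 other vehicle cells (9.15%). A set of 6 cells stood apart, all of them vehicle high cells. With 28 to 216 UMIs over the endothelial genes Emcn, Cdh5, Pecam1 and Tie1, they held ranks between 1 and 9 of the vehicle library and 5.92% of the Col4a1 and Sparc UMIs of the vehicle high cells. Of these 6, 4 had 0 or 1 UMI of the reporter. No panobinostat cell reached 5 endothelial UMIs, and gene calls that rest on the 6 cells are given with and without them. Levels along the ranking, splits of the high cells, clusters and correlations were not repeated without the 6 cells.

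Values that chose the cells are given without a reading. The lowest high cell had 252.5 CPM of Col4a1 and Sparc with panobinostat (9 UMIs) and 327 CPM with vehicle (6 UMIs), and the next cell below it had 252.5 CPM (6 UMIs) and 327 CPM (15 UMIs). No gap lay at the cut, with 153 panobinostat and 178 vehicle cells within 20% of the cut. Median levels were 616 CPM in panobinostat high cells against 50.1 CPM in other panobinostat cells, and 685 CPM in vehicle high cells against 38.5 CPM in other vehicle cells. The high cells, chosen on these UMIs, held 72.4% of all Col4a1 and Sparc UMIs with panobinostat and 75.7% with vehicle. By contrast, 428 panobinostat cells (18.8%) and 907 vehicle cells (31.8%) held none. Because counting noise enters such a choice, cells were also chosen on a random part of each cell's UMIs (each UMI with probability 0.5) and measured on the rest. Measured so, Col4a1 was 8.06-fold higher in high than in other cells with panobinostat and 9.33-fold with vehicle. Sparc was 14-fold higher with panobinostat and 12.7-fold with vehicle, and 91.7% of panobinostat and 87.6% of vehicle cells chosen in this way were also high cells.

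**Figure D1:**
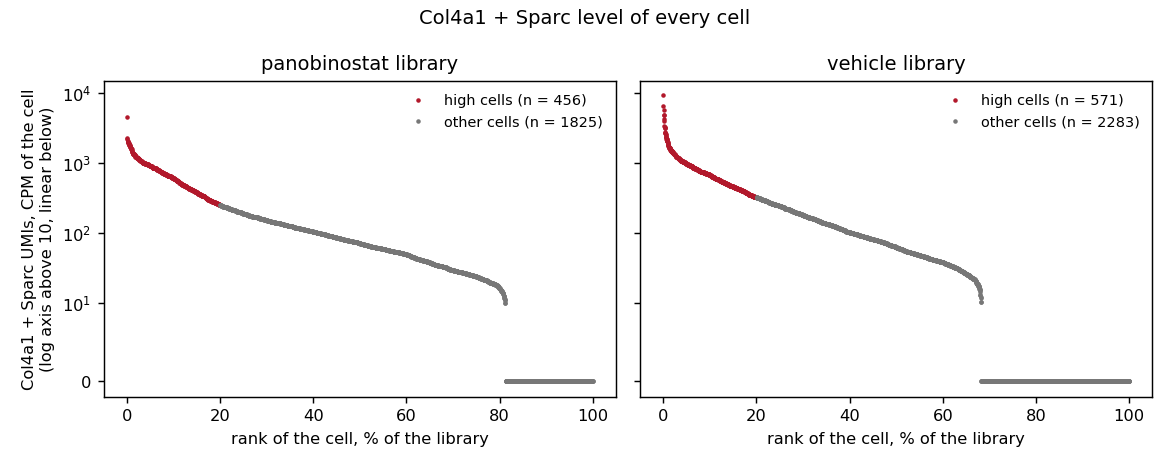
Each point is 1 cell, ranked by its level of Col4a1 and Sparc UMIs (vertical axis, CPM of the cell, log scale above 10 and linear below) in the panobinostat library (left) and the vehicle library (right), with high cells in red and other cells in grey. The curve passes through the cut of 252.5 CPM with panobinostat and 327 CPM with vehicle without a step, and a tail of cells with no UMI makes up 18.8% and 31.8% of the libraries.

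Col4a1 and Col4a2 share a start region, so their promoter windows are shown first, with that of Sparc for comparison. On GRCm38 Col4a1 lies on the minus strand of chromosome 8 (chr8:11198423-11312826) and Col4a2 on the plus strand (chr8:11312805-11449287), head to head and overlapping at their starts. Their 3′ ends, which the libraries read, lie at opposite ends of the locus. Sparc lies on the minus strand of chromosome 11 (chr11:55394500-55423183). The windows are from RefSeq (GRCm38.p6), from 250 bases before to 50 after each gene's RefSeq start, and each is written 5′ to 3′ on its own gene's strand. Capitals mark the 78 bases (chr8:11312777-11312854) that the Col4a1 and Col4a2 windows have in common, which are reverse complements of each other as printed. The Sparc window shares no bases with them, has no capitals, and starts from a RefSeq start inside the GENCODE gene.
Col4a1 (chr8:11312777-11313076, minus strand): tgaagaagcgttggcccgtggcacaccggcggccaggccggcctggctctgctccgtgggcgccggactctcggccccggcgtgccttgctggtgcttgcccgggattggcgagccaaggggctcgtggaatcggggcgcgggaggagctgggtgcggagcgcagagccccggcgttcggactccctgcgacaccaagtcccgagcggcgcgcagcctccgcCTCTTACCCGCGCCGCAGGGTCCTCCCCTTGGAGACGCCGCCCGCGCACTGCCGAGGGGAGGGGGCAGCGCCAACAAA
Col4a2 (chr8:11312555-11312854, plus strand): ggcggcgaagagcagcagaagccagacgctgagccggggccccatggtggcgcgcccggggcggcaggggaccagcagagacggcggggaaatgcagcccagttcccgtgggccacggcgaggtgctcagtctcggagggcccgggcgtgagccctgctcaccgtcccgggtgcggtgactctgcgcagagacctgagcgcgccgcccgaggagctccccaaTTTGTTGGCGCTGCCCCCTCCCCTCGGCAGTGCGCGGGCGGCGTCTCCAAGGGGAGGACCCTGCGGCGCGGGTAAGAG
Sparc (chr11:55420031-55420330, minus strand): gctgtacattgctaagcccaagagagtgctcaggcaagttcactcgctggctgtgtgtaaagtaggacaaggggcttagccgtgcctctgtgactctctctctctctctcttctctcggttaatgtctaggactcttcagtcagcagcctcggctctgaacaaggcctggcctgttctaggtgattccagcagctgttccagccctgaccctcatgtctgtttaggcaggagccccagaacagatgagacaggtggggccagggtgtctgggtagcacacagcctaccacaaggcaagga

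The Col4a1 and Col4a2 windows were 74.0% and 73.7% G and C, and that of Sparc 55.3%. A GC box (GGGCGG, either strand) occurred 1 time in the Col4a1 window, inside the shared bases, and 3 times in the Col4a2 window, and in 35.7% of all 32851 windows of this length. A CCAAT box (CCAAT, either strand) occurred 1 time in each of them and in 37.4% of all windows. Neither motif was found in the Sparc window, and the AP-1 site TGANTCA was in none of the 3 windows and in 7.8% of all. These are matches of letters, not measured sites.

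Col4a2, which the choice of cells did not use, was higher in high cells of both libraries. It stood at 287 CPM in panobinostat high cells against 43.8 CPM in other panobinostat cells, and at 220.1 CPM in vehicle high cells against 23.1 CPM in other vehicle cells. The log2 ratio of high over other cells was 2.71 with panobinostat (2.65 to 2.77) and 3.26 with vehicle (3.17 to 3.34). Here and below the range after a log2 ratio is its 95% interval for counting error only, which leaves out all variation between cells, cultures, mice and libraries. In cells thinned to 18663 UMIs each, at least 1 Col4a2 UMI was found in 93.7% of panobinostat high cells against 45.9% of other panobinostat cells, and in 86.4% of vehicle high cells against 27.4% of other vehicle cells. Without thinning the shares were 97.6% of high against 65.4% of other cells with panobinostat, and 90.5% against 33.6% with vehicle. No cell type that should lack these genes was at hand, so the share that free RNA can give was not measured. Among high cells, Spearman's rank correlation between the per-cell levels of Col4a1 and Col4a2 was 0.69 over 445 thinned panobinostat cells and 0.74 over 479 thinned vehicle cells. Among other cells it was lower, at 0.36 over 1776 thinned panobinostat cells and 0.45 over 1922 thinned vehicle cells. For Col4a1 with Sparc in high cells it was 0.15 with panobinostat and -0.15 with vehicle, in cells that were chosen on the sum of these 2 genes. For Col4a2 with Sparc in high cells it was 0.09 with panobinostat and -0.10 with vehicle. Over all thinned cells of a library, Col4a1 and Col4a2 gave 0.62 over 2221 panobinostat cells and 0.69 over 2401 vehicle cells, and Col4a1 and Sparc 0.42 with panobinostat and 0.39 with vehicle. The cells of such a correlation share 1 library and the values are sparse counts.

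Either gene alone would have chosen partly different cells. The top 20% by Col4a1 and the top 20% by Sparc shared 62.1% of their cells with panobinostat and 54.3% with vehicle. Chosen on Col4a1 alone, high cells had Sparc at 213 CPM against 25.1 CPM in other cells with panobinostat, and at 264 CPM against 45.5 CPM with vehicle. Chosen on Sparc alone, they had Col4a1 at 385 CPM against 77.2 CPM with panobinostat, and at 396 CPM against 81.8 CPM with vehicle.

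Across the transcriptome, a gene was called higher or lower in high cells when its ratio to other cells was at least 1.5-fold, its counting interval left out a ratio of 1, and its level was 10 CPM or more in high or other cells. With panobinostat, 239 of 8288 genes were called higher (2.88%) and 226 lower (2.73%). With vehicle, 270 of 8351 genes were called higher (3.23%) and 194 lower (2.32%). Scaling by TMM factors turned the vehicle split to 199 higher and 290 lower, and put the median log2 ratio of all genes with vehicle at -0.13, against -0.02 with the library totals used here. With library totals that median was -0.04 with panobinostat, and the medians of gene lists below stand against these values. A gene called in 1 library and not in the other is not thereby shown to differ between them. Higher in both libraries were 111 genes, 38 of them at least 2-fold in each, which are 46.4% of the panobinostat and 41.1% of the vehicle calls. Lower in both were 88 genes, 24 of them at least 2-fold in each, which are 38.9% of the panobinostat and 45.4% of the vehicle calls. The log2 ratios of the 7532 genes past the floor in both libraries had a Spearman's rank correlation of 0.49 across genes, which are not replicates. Barcodes found in both libraries numbered 0, which cannot tell whether cells were shared.

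**Figure D2:**
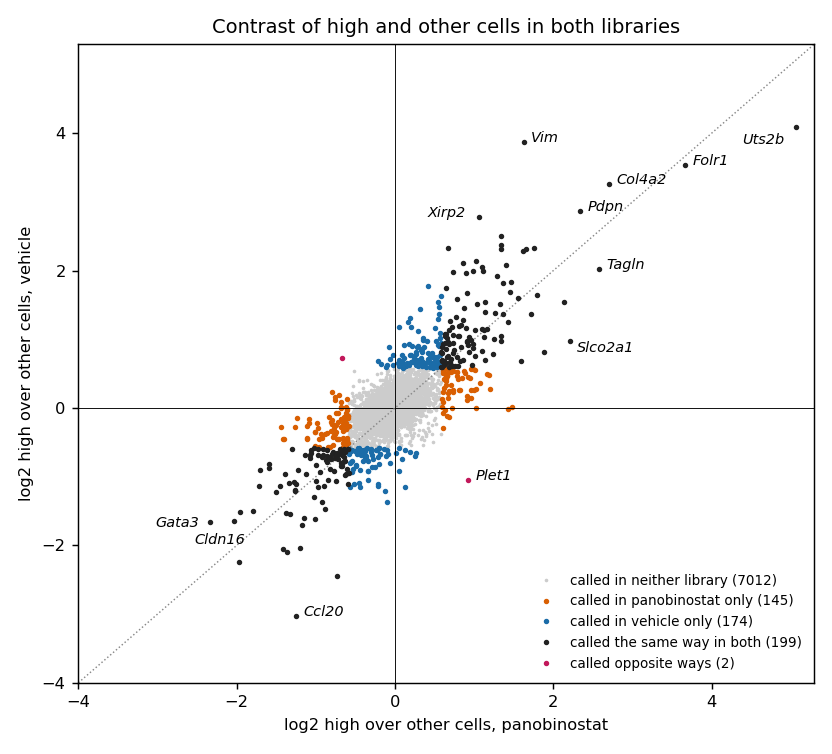
Each point is 1 of the 7532 genes past 10 CPM in both libraries, with the log2 ratio of high over other cells in the panobinostat library (horizontal) and in the vehicle library (vertical), and Col4a1 and Sparc left out. Black points were called the same way in both libraries and lie in the upper right (111 genes) and lower left (88 genes), and Vim lies far above the dotted line of equal ratios.

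Most basement membrane genes past the floor were not called, but calls higher took a larger share than over all genes. Over all genes, 2.88% were called higher and 2.73% lower with panobinostat, and 3.23% higher and 2.32% lower with vehicle. Of 27 listed, 18 passed the floor with panobinostat, 4 higher and 1 lower, with a median log2 ratio of 0.20. With vehicle 18 passed, 5 higher and 1 lower, with a median of 0.10. Hspg2, which encodes the heparan sulfate proteoglycan perlecan, stood at 93.9 CPM in panobinostat high cells against 49.9 CPM in other panobinostat cells, and at 92.4 CPM in vehicle high cells against 47.6 CPM in other vehicle cells. Npnt, which encodes nephronectin, a ligand of integrin α8β1, had log2 ratios of 0.60 with panobinostat and 0.89 with vehicle. The panobinostat call on Npnt ended under 6 alternatives, among them without cells low in the reporter (0.58). Lama3, which encodes the α chain of laminin 332, was the 1 member called lower in either library, with log2 ratios of -0.90 with panobinostat and -0.69 with vehicle, and its vehicle call ended over cells called G1 (-0.28). Lamb3, which encodes its β chain, had ratios of -0.35 with panobinostat and -0.21 with vehicle, called in neither library.

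The chains of the mature glomerular membrane differed less from other cells than Col4a2 did. Col4a3 stood at 174 CPM in panobinostat high cells against 138 CPM in other panobinostat cells, and at 126 CPM in vehicle high cells against 76.0 CPM in other vehicle cells. Its log2 ratios were 0.34 with panobinostat, not called, and 0.73 with vehicle, called higher. Col4a4 had ratios of 0.38 with panobinostat and 0.49 with vehicle, called in neither library. Col4a5 had 0.42, not called, and 0.79, called higher with vehicle. Nid1, which encodes nidogen 1, a linker of laminin and type IV collagen, had ratios of opposite sign, 0.39 with panobinostat and -0.40 with vehicle, neither of them called.

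Enzymes that modify and cross-link collagen were called higher more often than lower. Of 27 listed, 18 passed the floor with panobinostat, 4 higher and 0 lower (median 0.23), and 21 with vehicle, 7 higher and 1 lower (median 0.31). Against these, 2.88% of all genes were called higher and 2.73% lower with panobinostat, and 3.23% higher and 2.32% lower with vehicle. Loxl2, a lysyl oxidase that cross-links type IV collagen, stood at 58.7 CPM in panobinostat high cells against 19 CPM in other panobinostat cells, and at 52.9 CPM in vehicle high cells against 10.8 CPM in other vehicle cells. Lox, the founding lysyl oxidase, stood at 16.6 CPM against 4.92 CPM with panobinostat, and at 91.7 CPM against 18.3 CPM with vehicle. With panobinostat Lox passed the floor only through high cells. High cells had more of both enzymes in both libraries, by log2 ratios of 1.62 with panobinostat and 2.29 with vehicle for Loxl2 and 1.76 with panobinostat and 2.32 with vehicle for Lox. Of the 456 panobinostat high cells, 5 held 26.2% of the Lox UMIs of their group.

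Hydroxylation enzymes followed. Plod2, a lysyl hydroxylase, stood at 210.3 CPM in panobinostat high cells against 88.1 CPM in other panobinostat cells, and at 184 CPM in vehicle high cells against 92.1 CPM in other vehicle cells. P4ha1, a catalytic subunit of collagen prolyl 4-hydroxylase, had log2 ratios of 0.66 with panobinostat and 1.02 with vehicle. Called higher with vehicle and not with panobinostat were the prolyl 3-hydroxylase P3h1 (0.55 with panobinostat and 0.90 with vehicle), P3h4 (0.21 with panobinostat and 1.17 with vehicle) and the collagen chaperone Fkbp10 (1.02 with panobinostat and 2.40 with vehicle, with panobinostat levels under 10 CPM). The difference of the log2 ratios, panobinostat minus vehicle, was called for P3h4 (-0.97) and Fkbp10 (-1.39) and not for P3h1 (-0.35). Serpinh1, which encodes a collagen-specific chaperone, had ratios of -0.07 with panobinostat and 0.36 with vehicle, called in neither library. P4hb, the other subunit of prolyl 4-hydroxylase, had ratios of 0.33 with panobinostat and 0.28 with vehicle, also not called. Pcolce, an enhancer of procollagen C-proteinase, was called lower with vehicle (-0.63), a call that ended under 6 alternatives.

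Among matricellular genes and matrix protease inhibitors, calls higher outnumbered calls lower. Shares over all genes were 2.88% higher and 2.73% lower with panobinostat, and 3.23% higher and 2.32% lower with vehicle. Of matricellular and proteoglycan genes, 17 of 34 listed passed with panobinostat, 5 higher and 1 lower (median 0.29), and 15 with vehicle, 5 higher and 1 lower (median 0.38). Fstl1, a secreted member of the Sparc family, stood at 80.5 CPM in panobinostat high cells against 42.7 CPM in other panobinostat cells, and at 108 CPM in vehicle high cells against 33.8 CPM in other vehicle cells. Tnc, which encodes tenascin C, had log2 ratios of 0.29 with panobinostat and 1.12 with vehicle, and the proteoglycan Vcan 0.31 with panobinostat and 1.44 with vehicle, both called with vehicle and not with panobinostat. Their differences were called as well (-0.83 for Tnc and -1.13 for Vcan). Of 31 proteases and inhibitors, 17 passed with panobinostat (4 higher, 1 lower, median 0.16) and 18 with vehicle (4 higher, 1 lower, median 0.26). The same 4 genes were higher in both, the metalloprotease inhibitors Timp1, Timp2 and Timp3 and the plasminogen activator Plat. Timp3 stood at 790.0 CPM in panobinostat high cells against 451 CPM in other panobinostat cells, and at 156 CPM in vehicle high cells against 67.7 CPM in other vehicle cells. Plat had ratios of 0.97 with panobinostat and 0.62 with vehicle, and its vehicle ratio was -0.016 over cells called G1. Of interstitial collagens and fibronectin, 7 of 21 genes passed with panobinostat (2 higher, 1 lower, median 0.02) and 5 with vehicle (2 higher, 1 lower, median -0.15). Fn1, which encodes fibronectin, had ratios of 0.45, not called, and 0.77, called higher with vehicle.

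**Figure D3:**
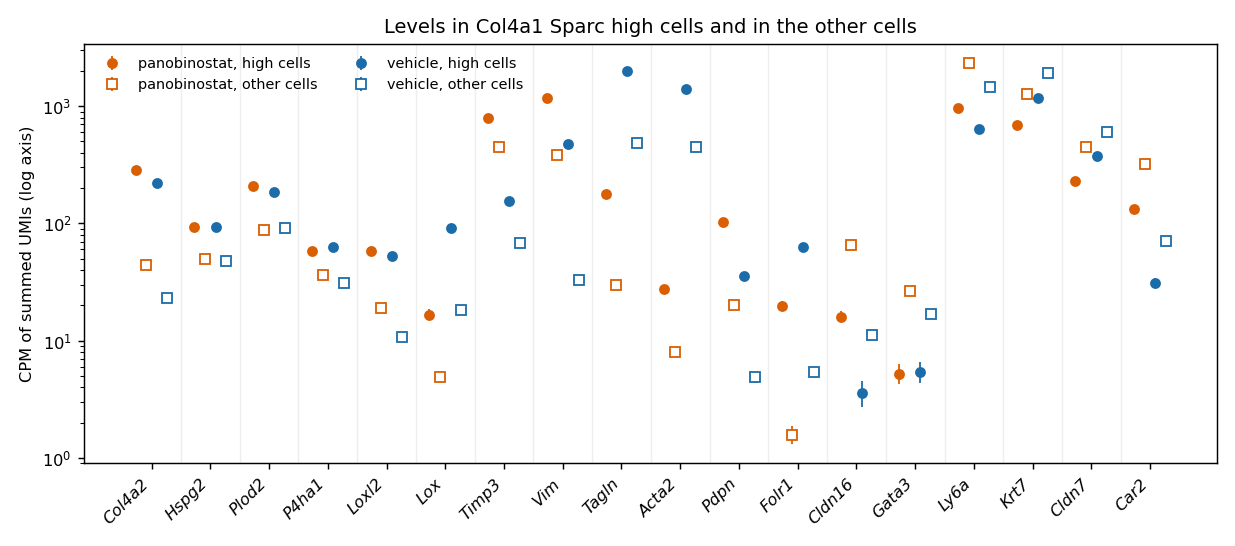
Summed levels (CPM, log axis) of 18 genes in panobinostat high, panobinostat other, vehicle high and vehicle other cells, drawn from left to right within each gene, with bars for the 95% counting interval, mostly smaller than the symbols. Genes from Col4a2 to Folr1 are higher in high cells (filled) of both libraries, and genes from Cldn16 to Car2 are lower.

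Vim, which encodes the intermediate filament protein vimentin, was higher in high cells of both libraries, by more with vehicle. Because the cells' working description named Vim, its direction is not independent of that description. It stood at 1178 CPM in panobinostat high cells against 381 CPM in other panobinostat cells, and at 477 CPM in vehicle high cells against 32.7 CPM in other vehicle cells. Its log2 ratio was 1.63 with panobinostat (1.60 to 1.65) and 3.87 with vehicle (3.80 to 3.93). Other panobinostat cells and vehicle high cells thus lay between the panobinostat high cells and the other vehicle cells. At equal depth, a Vim UMI was found in 97.3% of panobinostat high cells, 85.8% of other panobinostat cells, 39.5% of vehicle high cells and 10.2% of other vehicle cells. Without thinning the shares were 98.0% of high against 92.0% of other cells with panobinostat, and 46.8% against 14% with vehicle.

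Vehicle high cells were mixed in Vim, and those with it had less epithelial transcript. The 267 with a Vim UMI had Krt8 at 2912 CPM, Ly6a at 340.0 CPM and the junction gene Cldn7 at 218 CPM. The 304 without one had Krt8 at 4797 CPM, Ly6a at 893 CPM and Cldn7 at 515 CPM. Median depth was 27232 UMIs in cells with Vim and 28681 UMIs in cells without it. Vim and Krt8 had a Spearman's rank correlation of -0.51 over the 445 thinned panobinostat high cells and -0.54 over the 479 thinned vehicle high cells, against -0.28 over all thinned panobinostat cells and -0.27 over all thinned vehicle cells.

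Transgelin and smooth muscle actin, contractile proteins of actin filaments, were higher in high cells at very unequal levels. Tagln stood at 178 CPM in panobinostat high cells against 29.8 CPM in other panobinostat cells, and at 1991 CPM in vehicle high cells against 489 CPM in other vehicle cells, with log2 ratios of 2.58 with panobinostat (2.50 to 2.65) and 2.03 with vehicle (2.00 to 2.05). Acta2 stood at 27.7 CPM against 8.03 CPM with panobinostat, and at 1399 CPM against 446 CPM with vehicle. With panobinostat these transcripts sat in few cells: 101 of 456 high cells had a Tagln UMI, and 5 cells held 40.1% of the group's Tagln and 59.6% of its Acta2. With vehicle, 439 of 571 high cells had a Tagln UMI, and 5 cells held 13.6% of the Tagln. At equal depth the share with a Tagln UMI was 17.1% of high against 6.48% of other cells with panobinostat, and 73.7% against 48.6% with vehicle. Of 23 contractile cytoskeleton genes, 20 passed with panobinostat, 3 higher and 0 lower (median 0.06), and 22 with vehicle, 6 higher and 0 lower (median 0.21). Calls over all genes were 2.88% higher and 2.73% lower with panobinostat, and 3.23% higher and 2.32% lower with vehicle. Over all 239 genes called higher with panobinostat, 5 cells held over 25% of the high cells' UMIs for 9 genes, and over all 270 with vehicle for 19 genes.

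Of genes listed here as parietal and progenitor markers, Pdpn and Folr1 were called higher in high cells of both libraries, while Cldn1 was called lower with panobinostat. How specific these genes are to parietal cells was not tested. Pdpn, which encodes podoplanin, stood at 103 CPM in panobinostat high cells against 20.3 CPM in other panobinostat cells, and at 35.7 CPM in vehicle high cells against 4.87 CPM in other vehicle cells, with log2 ratios of 2.34 with panobinostat (2.25 to 2.43) and 2.87 with vehicle (2.68 to 3.06). Folr1, which encodes folate receptor α, stood at 19.8 CPM against 1.56 CPM with panobinostat, and at 62.5 CPM against 5.38 CPM with vehicle, with ratios of 3.67 with panobinostat (3.38 to 3.96) and 3.54 with vehicle (3.37 to 3.71). At equal depth a Folr1 UMI was found in 27.2% of panobinostat high cells against 3.32% of other panobinostat cells, and in 47.0% of vehicle high cells against 6.30% of other vehicle cells. Without thinning these shares were 46.9% of high against 5.59% of other cells with panobinostat, and 53.6% against 8.80% with vehicle. A Pdpn UMI was found at equal depth in 68.1% of high against 26.5% of other cells with panobinostat, and in 32.6% against 6.61% with vehicle. Without thinning it was found in 84.0% of high against 45.5% of other cells with panobinostat, and in 41.7% against 9.20% with vehicle. Both genes thus marked a larger share of high than of other cells in each library. Dkk3, a secreted glycoprotein of the Dickkopf family, had ratios of 0.86 with panobinostat and 2.11 with vehicle. Over all genes, 2.88% were called higher and 2.73% lower with panobinostat, and 3.23% higher and 2.32% lower with vehicle. Of 22 parietal and progenitor genes, 20 passed in each library. With panobinostat 7 were called higher (Pdpn, Folr1, Dkk3, Pax8, Prom1, Aldh1a2 and Cdh6) and 2 lower, Cldn1 and Prr15l (median 0.37) and with vehicle 6 higher (Pdpn, Folr1, Dkk3, Cdh6, Ncam1 and Mcam) and 0 lower (median 0.16). Cldn1, a claudin of tight junctions, stood at 46.9 CPM in panobinostat high cells against 73.4 CPM in other panobinostat cells, and at 70.2 CPM in vehicle high cells against 97.4 CPM in other vehicle cells, which was not called. Cd24a, which encodes the surface protein CD24, stood at 458 CPM in panobinostat high cells against 619 CPM in other panobinostat cells, and at 631 CPM in vehicle high cells against 649.6 CPM in other vehicle cells, called in neither library. Pdpn and Folr1, like Vim, were part of what the cells' working description named, so their direction is not independent of it. Pax8 was called higher with panobinostat (0.68) and not with vehicle (0.24), and Pax2 was called in neither library (-0.54 with panobinostat and 0.32 with vehicle).

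Calls lower outnumbered calls higher among genes of epithelial junctions, and among the few genes of distal nephron segments that passed the floor. Over all genes, 2.88% were called higher and 2.73% lower with panobinostat, and 3.23% higher and 2.32% lower with vehicle. Cldn16, a tight junction protein of the thick ascending limb, stood at 16.1 CPM in panobinostat high cells against 65.9 CPM in other panobinostat cells, and at 3.55 CPM in vehicle high cells against 11.1 CPM in other vehicle cells (log2 ratios -2.04 with panobinostat and -1.64 with vehicle). Gata3, a transcription factor of the nephric duct and its derivatives, stood at 5.22 CPM against 26.4 CPM with panobinostat, and at 5.35 CPM against 16.8 CPM with vehicle. Kitl, which encodes stem cell factor and was listed with the growth factors, had ratios of -1.37 with panobinostat and -1.53 with vehicle. Of 20 genes of the loop, distal tubule and collecting duct, 4 passed with panobinostat, 0 higher and 3 lower. With vehicle 5 passed, 1 higher (Hsd11b2) and 3 lower. Gata3 in both libraries and Cldn16 with vehicle passed the floor only through other cells. With so few genes past it, these counts say little of the segments as a whole. The sum of the list did not go the same way in both libraries. It stood at 350 CPM in panobinostat high cells against 385 CPM in other panobinostat cells, and at 370.5 CPM in vehicle high cells against 331.6 CPM in other vehicle cells. Without cells low in the reporter, the vehicle ratio of Cldn16 was -1.48 and was no longer called.

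Of 30 epithelial junction and keratin genes, 26 passed with panobinostat and 28 with vehicle. In each library 0 were called higher and 6 lower, with medians of -0.32 with panobinostat and -0.28 with vehicle. Against these, 2.73% of all genes were called lower with panobinostat and 2.32% with vehicle, and 2.88% and 3.23% higher. The vehicle count was 5 without the 6 cells with endothelial transcripts and 5 without cells low in the reporter, where the ratio of Krt19 was -0.58 and -0.52, against -0.59 with all cells. Krt7, a simple epithelial keratin, stood at 694 CPM in panobinostat high cells against 1259.8 CPM in other panobinostat cells, and at 1181 CPM in vehicle high cells against 1914 CPM in other vehicle cells. Cldn7, a claudin of tight junctions, had ratios of -0.97 with panobinostat and -0.68 with vehicle, and Elf3, an epithelial transcription factor, -0.90 with panobinostat and -1.14 with vehicle. Cdh1, which encodes E-cadherin, was called lower with panobinostat (-0.82) and not with vehicle (-0.57). Over vehicle cells called G1, the ratios of Krt7 (-0.45) and Cldn7 (-0.48) no longer reached 1.5-fold.

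Ly6a, which encodes the surface antigen Sca-1, was abundant and lower in high cells. It stood at 965 CPM in panobinostat high cells against 2323 CPM in other panobinostat cells, and at 634 CPM in vehicle high cells against 1469 CPM in other vehicle cells. The recycling GTPase gene Rab25 had ratios of -1.22 with panobinostat and -0.91 with vehicle, Mal -0.77 with panobinostat and -0.91 with vehicle, and Mal2, which acts in apical transport, -1.32 with panobinostat and -1.55 with vehicle. Car2, which encodes carbonic anhydrase 2, had -1.26 with panobinostat and -1.19 with vehicle, the lactate dehydrogenase subunit gene Ldhb -1.34 with panobinostat and -1.09 with vehicle, and the sphingolipid enzyme gene B4galt6 -1.03 with panobinostat and -1.29 with vehicle. Ccnd1, which encodes cyclin D1, stood at 265 CPM in panobinostat high cells against 654 CPM in other panobinostat cells, and at 1293 CPM in vehicle high cells against 1962 CPM in other vehicle cells. Its vehicle call ended over cells called G1 (-0.56) and with 3 other choices of cells.

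Beyond the lists, Uts2b had the largest ratio of the vehicle library among genes of at least 50 CPM in high or other cells. This gene, which encodes the peptide urotensin 2B, stood at 25.3 CPM in panobinostat high cells against 0.756 CPM in other panobinostat cells, and at 88.2 CPM in vehicle high cells against 5.19 CPM in other vehicle cells. It was carried by a minority, 80 of 456 panobinostat and 108 of 571 vehicle high cells, and 5 cells held 31.6% of these UMIs with panobinostat and 32.2% with vehicle. At equal depth the share of cells with a Uts2b UMI was 13.0% of high against 0.563% of other cells with panobinostat, and 17.5% against 4.42% with vehicle. Dlc1, a GTPase-activating protein, stood at 113 CPM in panobinostat high cells against 25.8 CPM in other panobinostat cells, and at 92.2 CPM in vehicle high cells against 31.7 CPM in other vehicle cells. Cryab, a small heat shock protein, stood at 4383 CPM against 1454 CPM with panobinostat, and at 2506 CPM against 1556 CPM with vehicle. Bst1, which encodes the surface enzyme CD157, had ratios of 1.35 with panobinostat and 2.51 with vehicle, and Cotl1, an actin-binding protein, 1.34 with panobinostat and 2.37 with vehicle. Further genes called higher in both libraries were Parm1 (1.65 with panobinostat and 2.32 with vehicle), Proser2 (1.55 with panobinostat and 1.61 with vehicle), Tmem252 (1.36 with panobinostat and 1.82 with vehicle) and Lce1g (1.71 with panobinostat and 1.37 with vehicle).

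In signalling lists, most members past the floor were not called. The shares over all genes were 2.88% higher and 2.73% lower with panobinostat, and 3.23% higher and 2.32% lower with vehicle. Of 21 targets of the Hippo pathway effector Yap, 19 passed in each library, 3 higher with panobinostat and 2 with vehicle and 0 lower, with medians of 0.24 with panobinostat and 0.25 with vehicle. The Yap target Ankrd1 stood at 1692 CPM in panobinostat high cells against 786 CPM in other panobinostat cells, and at 1982 CPM in vehicle high cells against 897 CPM in other vehicle cells. Of 33 TGF-β and BMP genes, 26 passed in each, 3 higher and 1 lower with panobinostat (median -0.09) and 1 higher and 3 lower with vehicle (median 0.07). Fst, which encodes the activin antagonist follistatin, had ratios of 0.64 with panobinostat and 1.08 with vehicle, and Bmp7 -0.92 with panobinostat and -1.36 with vehicle. The transcription factor gene Zeb2, a repressor of epithelial genes, had ratios of 1.40 with panobinostat and 2.08 with vehicle, and Foxc1 1.26 with panobinostat and 1.38 with vehicle. Of 32 integrin and focal adhesion genes, 25 passed with panobinostat (0 higher, 1 lower) and 26 with vehicle (1 higher, 0 lower), with medians of 0.02 with panobinostat and 0.07 with vehicle.

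Growth factor genes were called in both directions. Among all genes, 2.88% were called higher and 2.73% lower with panobinostat, and 3.23% higher and 2.32% lower with vehicle. Of 35 growth factors and receptors, 19 passed with panobinostat (5 higher, 2 lower, median 0.30) and 21 with vehicle (3 higher, 2 lower, median 0.24). Nrp2, which encodes neuropilin 2, a co-receptor for semaphorins and VEGF-C, stood at 31.6 CPM in panobinostat high cells against 14.2 CPM in other panobinostat cells, and at 55.7 CPM in vehicle high cells against 25.1 CPM in other vehicle cells. Igfbp2, which binds insulin-like growth factors, had ratios of 1.34 with panobinostat and 2.31 with vehicle, but 5 cells held 60.7% of its UMIs in vehicle high cells. Vegfa, the vascular endothelial growth factor gene, had ratios of -0.83, called lower with panobinostat, and -0.14 with vehicle. Of 32 Notch and Wnt genes, 15 passed with panobinostat (1 higher, 2 lower, median 0.07) and 14 with vehicle (3 higher, 3 lower, median 0.13). The Wnt ligand Wnt10a was called lower in both (-0.75 with panobinostat and -1.07 with vehicle).

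Injury, stress and lipid lists gave calls in both directions. All genes gave 2.88% higher and 2.73% lower with panobinostat, and 3.23% higher and 2.32% lower with vehicle. Of 20 kidney injury and repair genes, 17 passed with panobinostat (2 higher, 3 lower, median -0.26) and 20 with vehicle (4 higher, 0 lower, median -0.08). Havcr1, which encodes the injury marker KIM-1, stood at 67.5 CPM in panobinostat high cells against 41.9 CPM in other panobinostat cells, and at 333 CPM in vehicle high cells against 151 CPM in other vehicle cells. Lcn2, which encodes the secreted iron-siderophore carrier NGAL, had ratios of -1.40, called lower with panobinostat, and -0.45 with vehicle. Its difference of -0.95 was 0.40 with the top 30% of cells. Of metallothionein and oxidative stress genes, 20 passed with panobinostat (1 higher, 1 lower, median -0.21) and 17 with vehicle (2 higher, 5 lower, median -0.03). Gpx3, a secreted glutathione peroxidase made by the kidney, was higher in both libraries (1.12 with panobinostat and 1.13 with vehicle). Of cholesterol synthesis and uptake genes, 16 passed with panobinostat (1 higher, 0 lower, median 0.10) and 17 with vehicle (0 higher, 1 lower, median -0.34). Idi1, an isomerase of the mevalonate pathway, had ratios of 0.27 with panobinostat and -0.65, called lower, with vehicle, a difference of 0.92. Its vehicle call ended with the top 30% of cells (-0.50) and with Col4a1 alone (-0.46). Interferon response genes gave 1 higher and 1 lower of 11 with panobinostat and 2 higher and 0 lower of 9 with vehicle.

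Secretory and metabolic lists stayed near the median of all genes. Of 29 genes of folding and secretion, 28 passed in each library, 0 called with panobinostat and 2 higher with vehicle, with medians of 0.01 with panobinostat and 0.10 with vehicle. Respiratory chain genes gave 0 calls of 19 in each library, with medians of -0.04 with panobinostat and -0.03 with vehicle. Ribosome biogenesis genes gave 0 calls of 14 with panobinostat and 0 of 16 with vehicle. Glycolysis genes gave 1 higher of 17 with panobinostat and 0 of 15 with vehicle.

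**Figure D4:**
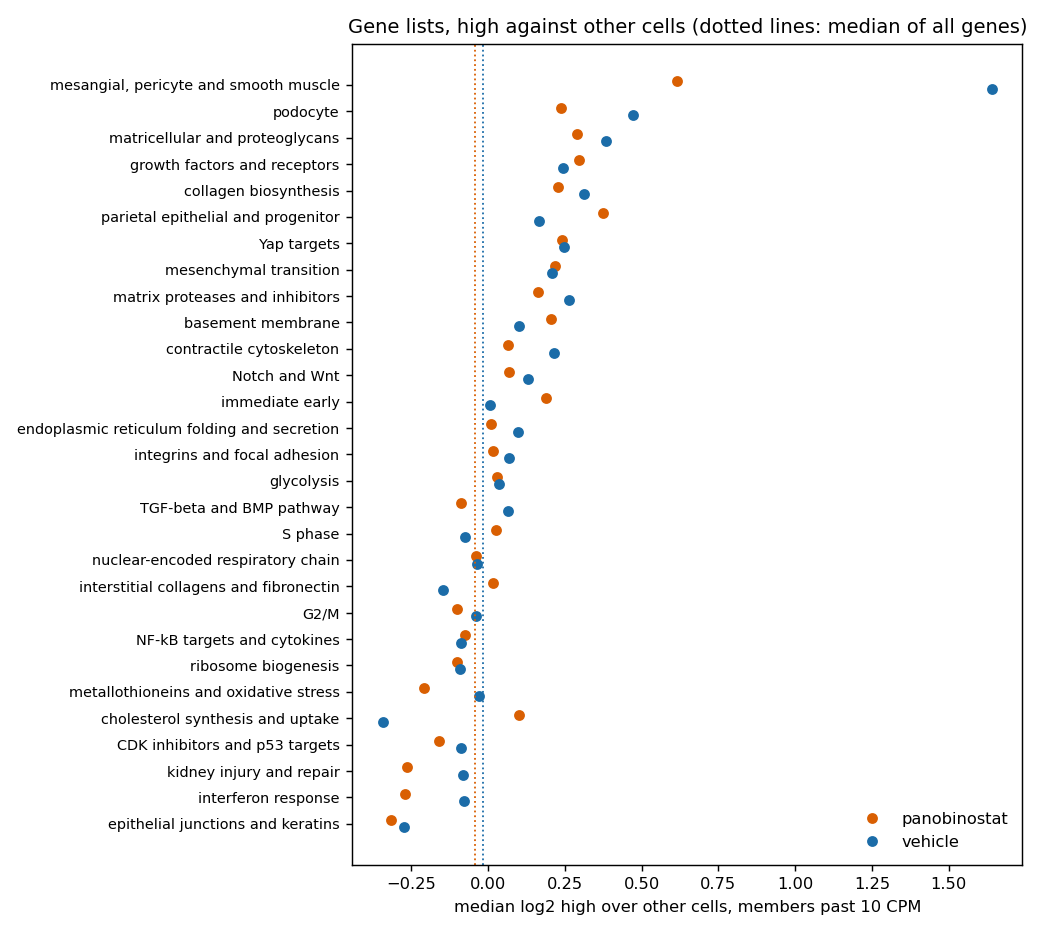
Median log2 ratio of high over other cells for each gene list with at least 5 members past 10 CPM in both libraries, panobinostat in orange and vehicle in blue, with dotted lines at the medians of all genes (-0.04 and -0.02). Lists run down the page by the mean of both medians, from mesangial, pericyte and smooth muscle genes (0.61 with panobinostat and 1.64 with vehicle, 6 members) to epithelial junctions and keratins (-0.32 and -0.28).

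Marker lists of other cell types were summed in each group, and their part in the results was not tested. Their calls stand beside shares over all genes of 2.88% higher and 2.73% lower with panobinostat, and 3.23% and 2.32% with vehicle. The endothelial list stood at 519.6 CPM in panobinostat high cells against 312 CPM in other panobinostat cells, and at 214 CPM in vehicle high cells against 111 CPM in other vehicle cells. Of it 3 of 20 genes passed the floor in each library and 2 were called higher, while Tie1 was at 0 in panobinostat high cells. With vehicle 1 of these was Emcn (endomucin), at 33.1 CPM in high cells against 0 UMIs in other cells, with 605 of its 606 UMIs in the 6 cells described above. Without these 6 cells, 264 genes were called higher with vehicle, 263 of them also called with all cells, 197 were called lower, and Vim was at 3.82 and Col4a2 at 3.22. Of the other listed genes, Cdkn1c (-0.99, against -0.51 with all cells) and Ifitm3 (-0.76, against -0.40) were then called lower with vehicle, which adds 1 lower call to the podocyte and to the interferon genes. Mesangial, pericyte and smooth muscle genes stood at 355 CPM in panobinostat high cells against 181 CPM in other panobinostat cells, and at 3555 CPM in vehicle high cells against 1017 CPM in other vehicle cells. In each library 6 passed, and 3 were called higher with panobinostat and 4 with vehicle, Acta2, Tagln and Cnn1 among them in both. The panobinostat call on Cnn1 ended in thinned cells (0.57) and with the mean of per-cell CPM (0.56). In vehicle high cells, 5 cells held over 25% of the Cnn1 UMIs. Of 20 listed markers, 18 were in the matrix, and none of the 18 was at 0 in high cells. Tagln and Acta2, whose levels are given above, made up most of the list's sum with vehicle. With panobinostat they made up most of its difference between high and other cells. Fibroblast genes stood at 131 CPM in panobinostat high cells against 107 CPM in other panobinostat cells, and at 153 CPM in vehicle high cells against 55.7 CPM in other vehicle cells. Of these 5 passed with panobinostat, with Lox called higher, and 3 with vehicle, with Lox and Cd34 called higher. Meox2 was at 0 in both groups of high cells, and Fap and Meox1 in panobinostat high cells. Leukocyte genes stood at 63.1 CPM in panobinostat high cells against 74.1 CPM in other panobinostat cells, and at 13.1 CPM in vehicle high cells against 13.8 CPM in other vehicle cells, with Itgax at 0 in both groups of high cells. Podocyte genes stood at 1705 CPM in panobinostat high cells against 1651 CPM in other panobinostat cells, and at 1732 CPM in vehicle high cells against 1458 CPM in other vehicle cells. Of these 13 passed with panobinostat (2 higher, 1 lower, median 0.24) and 12 with vehicle (4 higher, 0 lower, median 0.47). Proximal tubule genes stood at 158 CPM in panobinostat high cells against 202 CPM in other panobinostat cells, and at 149 CPM in vehicle high cells against 145 CPM in other vehicle cells, with 2 members past the floor in each library.

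Along the Col4a1 and Sparc level, other genes followed in steps. In the panobinostat library, from cells with no Col4a1 or Sparc UMI, through cells up to the median, from there to the 80th percentile, then to the 90th and to the 95th, to the top 5%, Col4a2 stood at 14.4, 29.7, 73.2, 176, 320.3 and 458 CPM. In the same bins of the vehicle library it stood at 5.45, 14.4, 44.1, 141, 217 and 374 CPM. Every step was upward in both libraries. Vim stood at 265, 350.0, 472, 958, 1327 and 1437 CPM with panobinostat, and at 21.4, 15.1, 53.9, 295, 429 and 867 CPM with vehicle, where its lowest value was in the bin up to the median. Tagln in the top 5% stood at 405 CPM against 118 CPM in the bin below with panobinostat, and at 3868 against 1511 CPM with vehicle. Genes lower in high cells differed in their course below the cut. Ly6a stayed between 2250.2 and 2359 CPM over the 3 bins below the cut with panobinostat, and was at 1298, 658 and 654 CPM in the 3 bins above it. Cldn16 with panobinostat stood at 63.3 CPM in the bin below the cut, 32.3 CPM in the bin above it, and 0.371 and 1.65 CPM in the last 2. Car2 over the 3 vehicle bins below the cut stood at 84.1, 78.8 and 55.2 CPM, and over the 3 above it at 34.7, 32.6 and 23.3 CPM, each step downward. Lcn2 in the panobinostat bins below the cut stood at 267, 230.0 and 319 CPM, highest in the bin next to the cut, and above it at 161, 71.5 and 28.4 CPM.

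**Figure D5:**
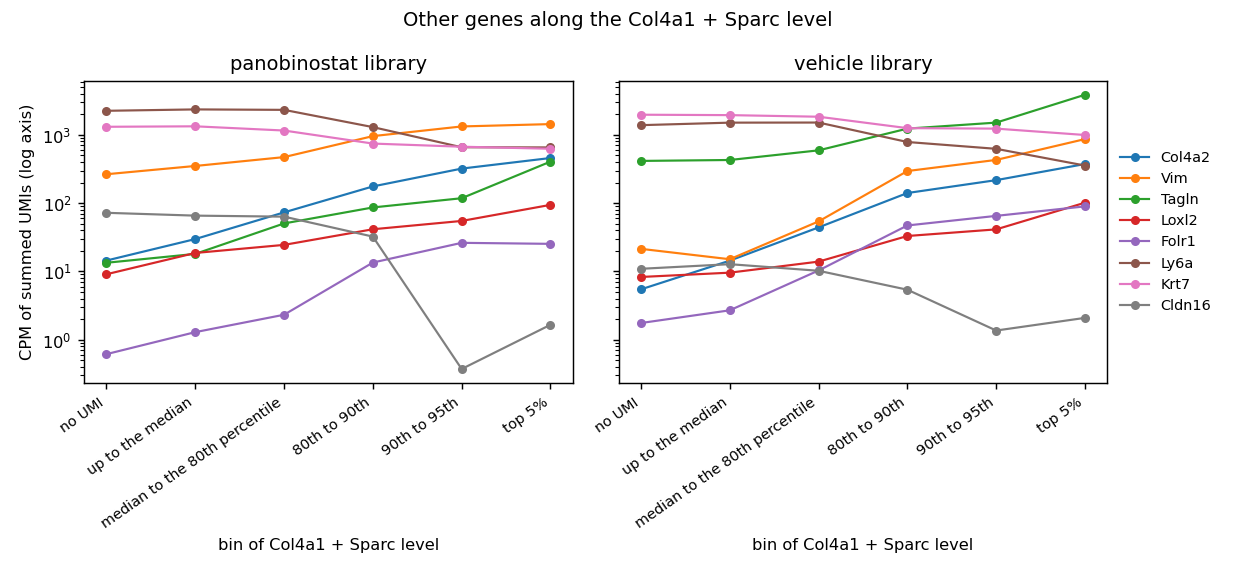
Summed levels (CPM, log axis) of 8 genes in 6 bins of the per-cell Col4a1 and Sparc level, in the panobinostat library (left) and the vehicle library (right), with the cut of high cells between the third and the fourth bin. Col4a2 climbs over all bins, while Ly6a, Krt7 and Cldn16 vary little over the 3 bins below the cut and are lower above it.

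Most high cells fell into 1 cluster of each library, in a clustering that left out Col4a1 and Sparc. Genes that rise with Col4a1 and Sparc were not left out, so the clusters are not independent of the choice of cells. With panobinostat, 332 of the 390 cells of 1 cluster (85.1%) were high cells, which is 72.8% of all high cells, against 3.92% to 32.7% of the cells in the other 5 clusters. With vehicle, 341 of the 429 cells of 1 cluster (79.5%) were high cells, 59.7% of all, against 2.20% to 17.8% in the other 5. These clusters had Col4a1, a gene that chose the cells, at 479.8 CPM with panobinostat and 542 CPM with vehicle. They were left unnamed. Vehicle high cells outside that cluster were mostly in another one, with 120 of its 676 cells.

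Cell cycle phases were called from S and G2/M genes. At equal depth S or G2/M was called in 1.35% of panobinostat high cells against 0.788% of other panobinostat cells, and in 63.7% of vehicle high cells against 65.7% of other vehicle cells. Without thinning these shares were 0% of panobinostat high cells (exact 95% binomial interval up to 0.806%, and a count of 0 allows 0.658% by the limit of 3 counts), against 0.219% of other panobinostat cells, and 64.3% of vehicle high cells against 65.0% of other vehicle cells. The intervals cover counting error only, and the panobinostat shares moved with the thinning itself. The vehicle share averaged over clusters that differed in phase. In the cluster with most vehicle high cells, S or G2/M was called without thinning in 82.7% of its 341 high cells against 88.6% of its other cells. In the cluster with the next most, it was called in 10.8% of 120 high cells against 23.9% of its other cells. Of S phase genes, 0 of 21 past the floor were called with panobinostat and 1 of 42 with vehicle. Of G2/M genes, 2 of 21 were called with panobinostat and 0 of 54 with vehicle. Shares over all genes were 2.88% higher and 2.73% lower with panobinostat, and 3.23% higher and 2.32% lower with vehicle. Over cells called G1, 240 genes were called higher and 228 lower with panobinostat, and 239 higher and 152 lower with vehicle.

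The contrast of high and other cells was then set against itself between the libraries. The difference, panobinostat log2 ratio minus vehicle log2 ratio, was called with the same fold in genes of at least 10 CPM in 1 and 10 UMIs in each of the 4 cell groups. It was called higher with panobinostat for 159 of 9038 genes (1.76%) and lower for 266 (2.94%). This split depended on the scaling: with TMM factors it was 275 higher and 149 lower, and with DESeq2 size factors 193 higher and 209 lower.

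Among genes of at least 50 CPM in 1 of the groups, Vim had the most negative difference, -2.24 (-2.31 to -2.17), and it stayed between -2.56 and -1.65 over 16 alternatives in scaling and choice of cells. Next were Tubb3, a neuronal β-tubulin (-2.07), the transcription elongation factor Tcea3 (-1.74) and Xirp2, an actin-binding protein of muscle (-1.73). Xirp2 stood at 128 CPM in panobinostat high cells against 61.8 CPM in other panobinostat cells, and at 162 CPM in vehicle high cells against 23.5 CPM in other vehicle cells, but its difference was 0.091 over cells called G1. Bst1 had a difference of -1.16 and Cotl1 -1.02, and both were called higher in both libraries. Tubb3 stood at 50.9 CPM in panobinostat high cells against 41.2 CPM in other panobinostat cells, and at 8.95 CPM in vehicle high cells against 1.73 CPM in other vehicle cells. Tcea3 stood at 61.3 CPM against 35.6 CPM with panobinostat, and at 3.82 CPM against 0.663 CPM with vehicle. Tubb3 and Tcea3 were thus under 10 CPM in both vehicle groups, and entered the difference through their panobinostat levels. For Vim, Tubb3 and Tcea3 the other vehicle cells were the lowest of the 4 groups.

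Positive differences were led, among the same genes, by Plet1, which encodes a surface protein of epithelial progenitors (1.97, 1.75 to 2.19). It stood at 92.4 CPM in panobinostat high cells against 48.6 CPM in other panobinostat cells, and at 11.2 CPM in vehicle high cells against 23.1 CPM in other vehicle cells, so that it was called higher with panobinostat and lower with vehicle. The panobinostat call ended in the top 10% of cells (0.30) and in cells chosen on Sparc alone (0.45). The other gene called in opposite directions was Slc29a1, a nucleoside transporter gene named here after its values were seen. It stood at 8 CPM in panobinostat high cells against 12.7 CPM in other panobinostat cells, and at 11.9 CPM in vehicle high cells against 7.21 CPM in other vehicle cells. Slco2a1, which encodes a prostaglandin transporter, was higher in high cells of both libraries but by more with panobinostat. It stood at 218 CPM in panobinostat high cells against 47.3 CPM in other panobinostat cells, and at 174 CPM in vehicle high cells against 88.9 CPM in other vehicle cells, a difference of 1.24 (1.15 to 1.32) that stayed between 1.05 and 1.38 over the same 16 alternatives. Sbsn, which encodes suprabasin, stood at 192 CPM against 71.3 CPM with panobinostat, and at 10.5 CPM against 10.6 CPM with vehicle, a difference of 1.43. The chemokine gene Ccl20 was lower in high cells of both libraries, with a difference of 1.78 that turned to -0.27 in the top 10% of cells and -0.35 in cells chosen on Sparc alone, and 5 cells held 65.3% of its UMIs in vehicle high cells. Differences for Folr1 (0.13, -0.20 to 0.46) and Acta2 (0.14, -0.02 to 0.30) had intervals that included 0, and those for Col4a2 (-0.55) and Pdpn (-0.53) were under 1.5-fold. With the top 30% of cells both passed it (-0.76 for Col4a2 and -0.68 for Pdpn), and over cells called G1 the Pdpn difference was 0.02.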

How the data were processed

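Droplet data of 2 libraries of sorted Pax2-lineage renal cells were used. Per the labels, the libraries were 3′ gene expression libraries of the 10x system. The submitters' processing notes name mm10 and Cell Ranger 3.0.1, and which annotation was counted is not given there. What the authors deposited is a matrix of raw UMI counts with 19394 genes and 5135 cells, in which every cell has 1798 genes or more and up to 9.98% of counts on mitochondrial genes. The library of a cell was read from the mark at the end of its barcode.

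The members and the gene lists were chosen with earlier results of these data known. Counts were summed over high and over other cells of each library, which gave 20866680 and 83322247 UMIs with panobinostat and 18314933 and 72440034 with vehicle, and divided by each sum to give CPM. Ratios carry exact binomial 95% intervals and differences of ratios Poisson intervals. With 1 library per group no edgeR or DESeq2 test was run, and the packages (edgeR 4.0.16, DESeq2 1.42.0, R 4.3.3) gave alternative scaling factors only. Calls were also run on simulated Poisson counts, which hold no variation between cells, cultures or libraries and so cannot show how calls behave with it. There 50 of 50 genes set 2-fold higher were called in each library. Of unchanged genes, 0 of 7933 were called with panobinostat and 0 of 7991 with vehicle. For the difference, 19 of 8671 unchanged genes were called when the change was set in panobinostat. Other steps used Python 3.11.15, scipy 1.17.1 and scanpy 1.11.5, with phases, and with clusters from 2000 variable genes without Col4a1 and Sparc. Thinning drew 18663 UMIs per cell, the 10th percentile of cell totals, and left out 11 high and 49 other panobinostat cells and 92 high and 361 other vehicle cells. Scrublet marked 14 of 5135 cells (0.273%), a share too low to take as a working call, so no doublets were removed.

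Named genes were Vim, Folr1, Pdpn, Col4a2, Pax2, Pax8 and the rule genes, the 14 largest and 14 smallest ratios per library and the 8 largest and 8 smallest differences among genes of at least 50 CPM, up to 4 members per list, and any member of the basement membrane and collagen biosynthesis lists. Mitochondrial, ribosomal protein and unnamed genes were left out of the ranked names. Gene coordinates are of GRCm38, and promoter windows of RefSeq (GRCm38.p6).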

Additional observations from a re-analysis of the deposited data

Results flagged for a closer look

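Plet1 stood apart because its log2 ratio of high over other cells had opposite signs in the libraries, 0.93 with panobinostat and -1.04 with vehicle. With 1 library per treatment this difference between the libraries was not tested.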

How the results depend on the processing

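Results were recomputed under 20 alternatives, 2 of them (leaving out cells with endothelial transcripts, and cells low in the reporter) added after seeing the data. Against 239 higher and 226 lower with panobinostat, 270 and 194 with vehicle, and 159 and 266 for the difference, the counts moved as follows. A floor of 1 CPM gave 673 and 764, 667 and 578, and 288 and 579. A floor of 50 CPM gave 100 and 60, 104 and 48, and 57 and 53. A lower fold threshold gave 618 and 803, 615 and 529, and 472 and 941, and a fold of 2 gave 80 and 71, 117 and 62, and 33 and 78. The top 30% of cells gave 157 and 94 with panobinostat, 93 lower with vehicle, and 88 and 149 for the difference. Cells chosen on Sparc alone gave 140 lower with panobinostat and 98 lower with vehicle. With TMM factors the difference was called higher for 275 and lower for 149 genes, so that 64.9% of its calls were higher against 37.4% with library totals (48.0% with DESeq2 size factors), and the vehicle calls were 40.7% higher against 58.2%. Against the bottom 20% of cells, 401 differences were called lower. The cause of these shifts was not tested, beyond the fewer or more genes and cells that a floor, a fold or a cut admits.

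Among called values of named genes, the sign turned in 16 cases, with a value counted again for each alternative that turned it. Over cells called G1 these were the vehicle ratio of Plat (-0.016) and the differences of Aqp1 (-0.21), Wnt5a (0.0195) and Xirp2 (0.091). In the top 10% of cells they were the differences of Ccl20 (-0.27), Cp (0.24), Ifit3 (0.076), Igfbp2 (0.51) and Uts2b (-0.66), and in the top 30% that of Lcn2 (0.40). With cells chosen on Col4a1 alone they were the vehicle ratio of Ccl2 (-0.14) and the differences of Ccl2 (0.026) and Igfbp2 (0.050). The rest were the differences of Ccl20 with cells chosen on Sparc alone (-0.35), Igfbp2 in thinned cells (0.23) and Loxl2 against the bottom 20% of cells (0.058). Under the 16 alternatives that keep the floor and the fold, 66 of 98 named calls with panobinostat held throughout, 72 of 105 with vehicle and 30 of 74 for the difference.

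No paired analysis was possible because each treatment had 1 library. The depth of a median 27822 to 42742 UMIs per cell limits shares of cells with a UMI, and counting intervals leave out cell, culture and mouse. Treatment and library cannot be told apart, and the cells were chosen on 2 of the genes measured.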
